A study of Mus musculus with 18 samples.

Results

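In the retina of wild-type (WT) mice labelled as treated with NACET, 8 genes outside the proximal part of chromosome 12 stood at levels unlike those of the other groups. They were Fn3krp, Bcl3, Steap4 and Gm10475, which were higher, and Rec8, Dynlt1b, Tmem181b-ps and Gm9493, which were lower. These 8 of the 35006 gene names in the count files were chosen on that difference. Their values in every comparison with WT + NACET are therefore given as a description, without a test. Poly(A) RNA of whole retina was read in 18 libraries of male mice: WT (C57BL/6J, 3 libraries), WT + NACET (6), Akita (C57BL/6-Ins2Akita/J, 4) and Akita + NACET (5). Akita mice carry a dominant mutation of the Ins2 insulin gene and become diabetic without a change of diet. NACET, the ethyl ester of N-acetylcysteine, was dissolved in the water bottles (0.33 mg/mL, to reach 50 mg/kg a day), from 4 to 24 weeks of age, and the untreated groups received water. The labels do not tie a library to an animal, so p-values measure the spread between libraries.

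The 8 genes belong to several systems. Fn3krp phosphorylates sugar adducts on glycated proteins, which then fall off, a repair route for glycation damage. Bcl3 is an atypical member of the IκB family that binds NF-κB p50 and p52 dimers in the nucleus, and Steap4 is a membrane reductase of iron and copper that inflammatory cytokines induce in several tissues. Rec8 is the meiotic kleisin subunit of cohesin, the ring that holds sister chromatids together, and Dynlt1b encodes a Tctex-type light chain of cytoplasmic dynein. Tmem181b-ps is named as a pseudogene of Tmem181a, Gm9493 is a copy of the ribosomal protein gene Rps7, and Gm10475 is a noncoding transcript within Reln.

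Each library held between 11495596 and 17814479 counts in genes, and the transcripts of rods were abundant in all 18, with 5 rod markers summing to at least 81640 CPM, counts scaled by library size to parts in 1e6. Markers of other tissue varied. The 5 lens markers summed to 1.669 to 56.39 CPM in 5 WT + NACET libraries and to 21920 in replicate 5, against 1.823 to 2644 in the other 12, and 5 markers of the retinal pigment epithelium to 306.7 to 1379 against 55.94 to 654.8. The part of these admixtures in the levels below was not tested, and fewer cells of a type and less RNA per cell cannot be told apart in whole tissue. An effect of NACET likewise cannot be told apart from anything else that sets the WT + NACET mice off from the rest.

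In the files' genome build, mm9, with the GENCODE vM1 annotation, the 8 genes lie on 6 autosomes. Fn3krp is at chr11:121282715-121292602 on the plus strand, Bcl3 at chr7:20393811-20408119 on the minus strand, and Steap4 at chr5:7960472-7982213 and Gm10475 at chr5:21416749-21459832, both plus. Rec8 is at chr14:56236874-56244232 and Gm9493 at chr19:23694232-23694810, both plus. Dynlt1b, at chr17:6429221-6435441 on the plus strand, and Tmem181b-ps, at chr17:6439626-6489526 on the minus strand, are adjacent, 4185 bases apart, and are the only 2 members that neighbour each other. Gm10475 lies on the strand opposite to Reln, inside it, and Gm17692 spans both Dynlt1b and Tmem181b-ps. The reads were counted without regard to strand, so reads from overlapping genes could not be separated by it.

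Among the 4 lower genes 3 are near copies of another gene, and their sequences show how few bases could tell the copies apart. The coding sequence of Dynlt1b, 342 bases long, differed from that of Dynlt1a, 111747 bases away on the same chromosome, at 1 base, and it differed from Dynlt1c, Dynlt1e and Dynlt1f at 1 base each. Its first 120 bases follow beside those of Dynlt1a, with the differing base in capitals.
Dynlt1b: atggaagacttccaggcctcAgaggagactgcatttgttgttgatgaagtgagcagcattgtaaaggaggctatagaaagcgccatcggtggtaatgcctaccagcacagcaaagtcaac
Dynlt1a: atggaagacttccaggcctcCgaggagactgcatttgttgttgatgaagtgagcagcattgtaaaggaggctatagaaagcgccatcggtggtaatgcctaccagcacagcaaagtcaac

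Gm9493, a single exon of 579 bases, was identical to the Rps7 coding sequence at 571 bases and differed at 8. Of these, 6 fall in the first 150 bases, where capitals mark them.
Gm9493: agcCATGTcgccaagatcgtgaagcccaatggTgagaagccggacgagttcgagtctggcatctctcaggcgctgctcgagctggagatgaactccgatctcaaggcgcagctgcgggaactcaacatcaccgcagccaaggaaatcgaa
Rps7: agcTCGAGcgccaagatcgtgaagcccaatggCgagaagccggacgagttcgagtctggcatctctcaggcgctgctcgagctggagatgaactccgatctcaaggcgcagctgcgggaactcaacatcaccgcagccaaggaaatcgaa

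The coding sequence annotated for Tmem181b-ps differed from that of Tmem181a at 13 of 1425 bases, and 7 of those fall in the first 120 bases, again in capitals.
Tmem181b-ps: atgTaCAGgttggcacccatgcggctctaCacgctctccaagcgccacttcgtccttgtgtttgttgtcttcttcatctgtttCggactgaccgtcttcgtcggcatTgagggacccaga
Tmem181a: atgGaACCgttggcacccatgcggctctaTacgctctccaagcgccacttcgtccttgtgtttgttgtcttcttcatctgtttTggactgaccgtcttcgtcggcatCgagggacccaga

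Only reads with 1 best place in the genome were counted, so what a gene can collect depends on the share of its exonic sequence that occurs once. Cut into windows of 31 bases, 16.3% of the exonic windows of Dynlt1b, 13.6% of those of Tmem181b-ps and 11.3% of those of Gm9493 occurred once in mm9. The other 5 genes were nearly free of copies, with 100% for Bcl3 and Steap4, 99.3% for Rec8, 98.6% for Gm10475 and 93.1% for Fn3krp. Counts of the first 3 therefore rest on a small part of each transcript. The read length is not given in the sources used here, and longer reads would find more unique windows.

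**Figure D1:**
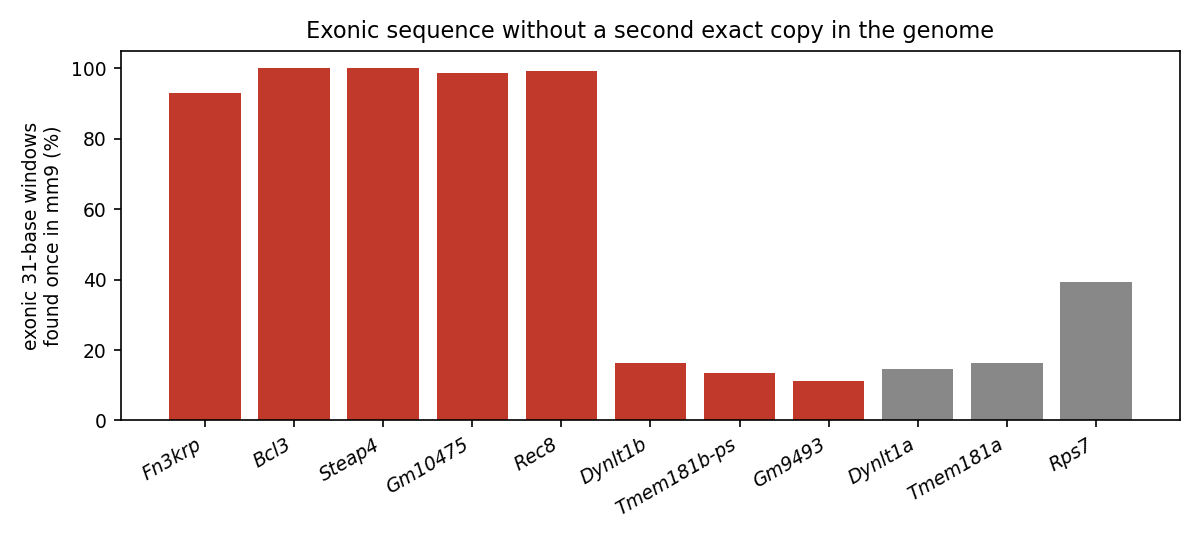
Share of exonic windows of 31 bases found once in the mm9 genome, on either strand, in percent, for the 8 genes (red) and 3 near copies (grey). Dynlt1b, Tmem181b-ps and Gm9493 lie between 11.3% and 16.3%, while the other 5 genes lie at 93.1% or above.

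Fn3krp was the most abundant of the higher genes. In WT + NACET it stood at 29.2 CPM at the lowest, 60.2 at the median and 70.7 at the highest. In WT it stood at 6.32, 6.48 and 6.62 CPM, in Akita at 7.78, 7.53, 6.59 and 5.55, and in Akita + NACET at 6.27, 6.66, 6.57, 5.53 and 8.23. Every WT + NACET library lay above every other library, by 3.55-fold between the nearest pair, and the mean was 8 times that of the other 12. The other 3 groups overlapped. Within WT + NACET the libraries spread widely, from 409 to 1189 counts with a CV of 31.3%, whereas the 3 WT libraries had a CV of 2.36%.

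Fn3k, the paralog 3625 bases from Fn3krp on the same strand, was not called. Its coding sequence was 67.1% identical to that of Fn3krp. It stood at 17.5 ± 1.45 CPM (SD, n = 6) in WT + NACET and 18.7 ± 1.79 (n = 3) in WT, with log2 fold change -0.10 ± 0.13 (SE; adjusted p = 0.714 by edgeR's quasi-likelihood test). Of 16 tested genes of glycation repair and carbonyl detoxification, among them Glo1, the glyoxalase that clears methylglyoxal, 0 were called in WT + NACET vs WT at an adjusted p of at most 0.05 by edgeR or by DESeq2, and 4 had an unadjusted p under 0.05 by edgeR. Over all 16183 genes tested, edgeR called 1.48% in this comparison, and 3162 had an unadjusted p under 0.05. DESeq2 called 705, out of genes set by its own filter rather than these 16183. The median log2 fold change of the 16 was 0.19, and that of all genes -0.01.

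Bcl3 was low in every group but WT + NACET. In WT + NACET it reached 1.19, 2.67 and 4.43 CPM at the lowest, median and highest library, or 21 to 62 counts. The WT libraries had 0.215, 0.320 and 0.241 CPM, in Akita at 0.281, 0.695, 0.565 and 0.912, and in Akita + NACET at 0.482, 0.354, 0.383, 0.497 and 0.784. The groups did not overlap, but the gap was narrow, 1.31-fold between WT + NACET replicate 4 and Akita replicate 4, on 21 and 11 counts. The mean was 5.47 times that of the other 12 libraries. The NF-κB genes whose proteins Bcl3 binds were not called. Nfkb1, the gene of p50, had a log2 fold change of -0.18 ± 0.28 (adjusted p = 0.760) in WT + NACET vs WT, and Nfkb2, the gene of p52, one of -0.18 ± 0.29 (adjusted p = 0.772). Of 21 tested genes of the NF-κB family, its inhibitors and its targets, edgeR called 0, with 3 at an unadjusted p under 0.05, and DESeq2 called 1, Chuk.

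Steap4 was the only gene of the 8 whose groups overlapped. In WT + NACET it stood at 1.99, 6.27 and 10.3 CPM at the lowest, median and highest library. The WT libraries had 1.80, 1.68 and 0.723 CPM, in Akita at 0.982, 1.04, 2.01 and 1.66, and in Akita + NACET at 1.03, 1.47, 0.766, 0.870 and 0.653. The overlap came from WT + NACET replicate 4, at 1.99 CPM (35 counts), beside Akita replicate 3, at 2.01 CPM (32 counts), while the other 5 WT + NACET libraries lay above all 12. The ratio of means was 5.05. The same replicate 4 was lowest of the 6 for Bcl3, and replicate 2 was highest for both. Its paralogs Steap1, Steap2 and Steap3 were not called, and of 22 tested genes of iron and copper handling edgeR called 0, with 2 at an unadjusted p under 0.05, and DESeq2 called Trf, the iron carrier transferrin, and Heph, a ferroxidase.

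Gm10475 was close to absent outside WT + NACET. It stood at 1.60, 2.33 and 3.33 CPM at the lowest, median and highest WT + NACET library, on 26 to 56 counts. In WT it stood at 0.503, 0.160 and 0.120 CPM, in Akita at 0.281, 0.405, 0.502 and 0.580, and in Akita + NACET at 0.413, 0.471, 0.638, 0.808 and 0.522. The groups did not overlap, with 1.98-fold between the nearest libraries and a ratio of means of 5.49. It passed the filter on low counts only through the WT + NACET libraries, whereas the other 7 genes passed without them. Reln, its host gene, which encodes the secreted glycoprotein reelin, stood at 33.6 ± 13.7 CPM in WT and 21.7 ± 9.30 in WT + NACET (log2 fold change -0.62 ± 0.31, adjusted p = 0.283). In the reelin pathway, 0 of 12 tested genes were called by edgeR or DESeq2, and 3 had an unadjusted p under 0.05 by edgeR.

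Rec8 was nearly silent in WT + NACET. Counts were 1, 0, 17, 4, 1 and 0 in its replicates 1 to 6, at most 1.29 CPM, with a median of 0.0604. In WT it stood at 5.82, 5.28 and 4.998 CPM, in Akita at 4.84, 4.52, 6.40 and 3.32, and in Akita + NACET at 8.54, 4.54, 5.23, 5.90 and 4.90, on 40 to 124 counts. No library of WT + NACET reached the others, and the mean of the others was 19.6 times higher. Replicate 3 carried 17 of the 23 counts of the group. Ipo4, whose annotated end lies 5 bases from that of Rec8 on the opposite strand, stood at 37.8 ± 2.42 CPM in WT and 41.1 ± 1.57 in WT + NACET (adjusted p = 0.428).

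Other cohesin genes were not called by edgeR in WT + NACET vs WT. Rad21, the mitotic kleisin that holds the same place in the ring, stood at 135.1 ± 8.75 CPM in WT and 161.6 ± 7.82 in WT + NACET (log2 fold change 0.26 ± 0.07, adjusted p = 0.0622). WT was its lowest group, with 184.9 ± 8.60 CPM in Akita and 155.6 ± 5.23 in Akita + NACET. Rad21 was called by edgeR in Akita vs WT (adjusted p = 0.0117). Among 17 tested cohesin subunits and regulators, 0 were called in WT + NACET vs WT by edgeR, 4 had an unadjusted p under 0.05, and DESeq2 called 1, Rad21. Meiosis genes were scarce in all groups. Of 20 found in the files 8 passed the filter, edgeR and DESeq2 called 0 of them in WT + NACET vs WT, and 2 had an unadjusted p under 0.05 by either tool. The median log2 fold change of these 8 by edgeR was -0.41, against -0.01 for all genes.

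Dynlt1b was not detected in WT + NACET, with 0 counts in each of 6 libraries. In WT it had 10, 12 and 14 counts, in Akita 6, 10, 9 and 4, and in Akita + NACET 14, 10, 14, 11 and 16. A floor of 3 counts over the 6 libraries together, 0.0324 CPM, gave a level at least 25.8-fold lower than in WT, at least 15-fold lower than in Akita and at least 25.5-fold lower than in Akita + NACET. These limits cover counting error only. Dynlt1a, its neighbour that differs by 1 coding base, was present in all groups, at 1.43 ± 0.248 CPM in WT + NACET and 1.24 ± 0.109 in WT (adjusted p = 0.720). Of 21 tested subunits of cytoplasmic dynein and dynactin, edgeR called 1, Dynlrb2, a roadblock-type light chain that was higher in WT + NACET than in WT (log2 fold change 2.12 ± 0.42, adjusted p = 0.0125), and 7 had an unadjusted p under 0.05. DESeq2 called Dynlrb2 and Tctex1d2, a Tctex-type gene like Dynlt1b, which had a log2 fold change of 0.61 ± 0.16 by edgeR (adjusted p = 0.0571). Dynlrb2 rested on WT, with 1 to 7 counts per library, and stood as high in Akita, at 1.56 ± 0.525 CPM, as in WT + NACET, at 1.53 ± 0.482.

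Tmem181b-ps was low to a uniform degree. It had 8 to 10 counts in each of the 6 WT + NACET libraries, 0.475 to 0.607 CPM with a median of 0.560 and a CV of 7.90%. The WT libraries had 6.10, 5.28 and 5.78 CPM, in Akita at 4.28, 4.46, 3.83 and 3.81, and in Akita + NACET at 4.07, 7.66, 5.36, 6.59 and 7.58. The nearest libraries lay 6.28-fold apart, the widest gap among the 6 genes for which it could be computed, and the mean of the other 12 was 9.76 times higher. Tmem181a, which the same reads could fit but for a few bases, stood at 7.18 ± 0.874 CPM in WT + NACET and 6.99 ± 0.812 in WT (adjusted p = 0.907). Tmem181c-ps was at 0 counts in all groups.

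Gm9493 was the most abundant of the 8 per length, at 59.0 CPM per kb of exon in WT, where the other 7 lay between 0.104 and 2.57. In WT + NACET it stood at 2.72, 3.23 and 4.02 CPM at the lowest, median and highest library. In WT it stood at 35.9, 28.5 and 38.1 CPM, in Akita at 38.2, 33.6, 38.7 and 30.01, and in Akita + NACET at 36.5, 33.2, 37.6, 36.0 and 17.96. The nearest libraries lay 4.47-fold apart and the means 10.04-fold. Rps7, a component of the small ribosomal subunit, stood at 10.8 ± 1.07 CPM in WT and 14.4 ± 1.73 in WT + NACET (log2 fold change 0.42 ± 0.21, adjusted p = 0.275). Because 39.4% of the exonic windows of Rps7 and 11.3% of those of Gm9493 occurred once, their counts are uncertain as levels of the 2 genes.

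**Figure D2:**
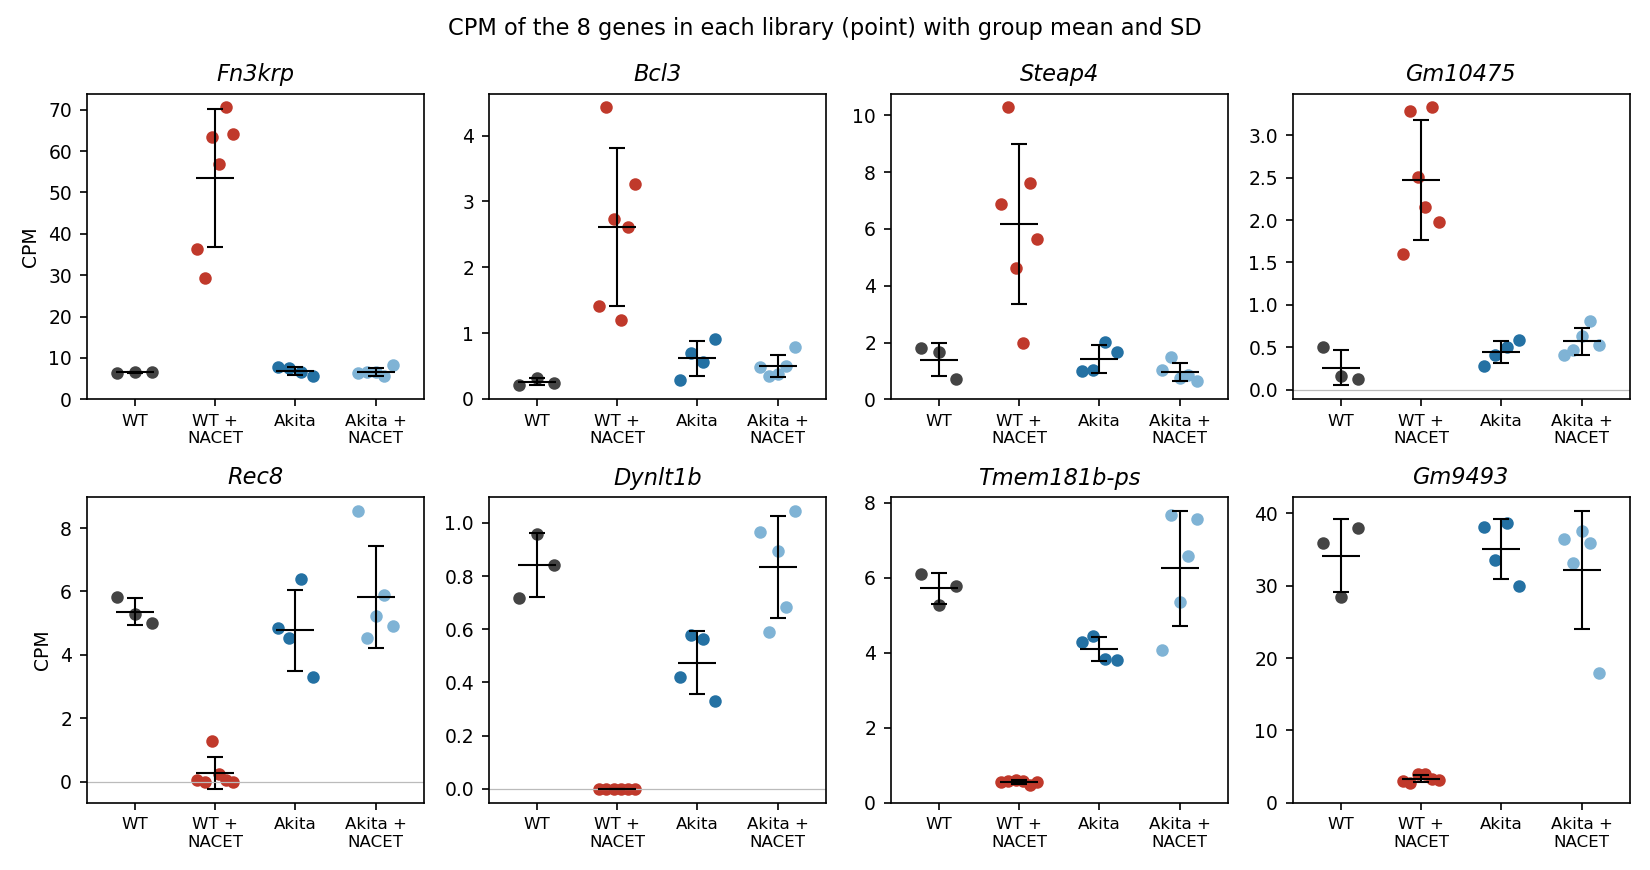
CPM (vertical axis, linear, a scale of its own for each gene) of the 8 genes in the 18 libraries, by group. Points are libraries, the horizontal bar is the group mean and the whisker its SD. Red points, WT + NACET, lie apart from the other 3 groups for 7 genes, and for Steap4 the lowest, at 1.99 CPM, meets the highest Akita library, at 2.01.

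In all, 3 of the 8 genes lay above and 4 below all 12 other libraries, with Steap4 as the exception. Of the 16183 genes tested, 0.779% lay wholly above and 0.408% wholly below. Since the genes were chosen for this, their share has no reading beside those percentages. The lens markers summed to at most 16.22 CPM in WT + NACET replicates 1 to 4 and to 21920 in replicate 5, and their part in these levels was not tested.

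The tested genes next to the 8 in the order of the chromosome were not called by edgeR. Not all of them are close. Zfp180 lies 4458824 bases from Bcl3, Zfp804b 1083949 from Steap4 and Ezr 452864 from Tmem181b-ps. Of 42 neighbours that passed the filter, the 3 nearest on each side of each gene, edgeR called 0 in WT + NACET vs WT, 6 had an unadjusted p under 0.05 (3162 of 16183 over all genes), and DESeq2 called 1, Ezr, the gene of the membrane linker ezrin, beyond Tmem181b-ps. The number of neighbours whose WT + NACET libraries lay wholly apart from the other 12 was 0. Over all 16183 genes edgeR called 1.48%, while 0.779% lay wholly above and 0.408% wholly below. With shares this small, 42 genes are too few for either 0 to tell anything about the neighbours. Their median absolute log2 fold change was 0.18, as it was for all genes (0.18). Largest in size among those on a tested neighbour was that of Zfp750, 79690 bases beyond Fn3krp, at -1.10 ± 0.74 (adjusted p = 0.419), followed by Ezr at 0.95 ± 0.26 (adjusted p = 0.0726).

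**Figure D3:**
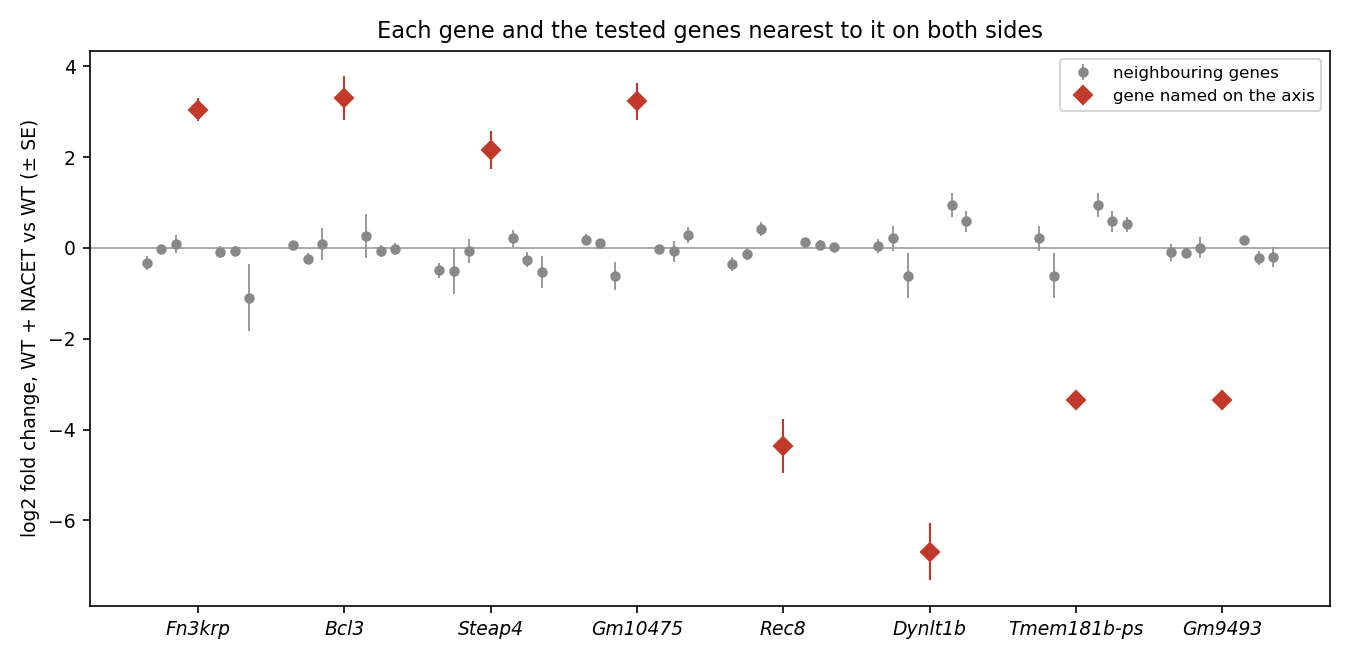
Log2 fold change with SE in WT + NACET vs WT for each of the 8 genes (red diamonds, a description) and for up to 3 tested genes on each side of it in the order of the chromosome (grey). The grey points lie between -1.10 and 0.95, while the red ones lie beyond 2 in size. The value drawn for Dynlt1b, with 0 counts in WT + NACET, depends on the prior count of the fit and is no bound.

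How the 8 genes stood relative to one another was described over the 18 libraries by Pearson's r of log2 CPM, with no test, since the libraries fall into the same 2 sets for nearly all of them. The genes most like Fn3krp were Wdfy1 (r = 0.976), 6430562O15Rik (0.935) and Gtf2h3 (0.931). Wdfy1, an endosomal adaptor of Toll-like receptor signalling, went from 14.5 ± 1.52 CPM in WT to 95.2 ± 5.30 in WT + NACET. Acp1, a phosphatase gene on proximal chromosome 12, was the most opposite to Fn3krp (-0.987) and among those most like the 4 lower genes, at 0.983 with Gm9493 and 0.967 with Tmem181b-ps. Bcl3 was most like Tyro3 (0.920), a receptor tyrosine kinase. Steap4 was most like C4b (0.931), a complement component, Bst2 (0.893), an interferon-induced gene, and Edn2 (0.890), an endothelin that stressed photoreceptors release.

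Genes of the STAT3 and acute phase response, which inflammatory cytokines induce as they do Steap4 and Bcl3, were set beside these 2. The list was chosen with earlier results of these data known, and it holds Edn2, named above for its r with Steap4. A link of the list to Steap4 or Bcl3 was not tested. Of 20 tested, edgeR called 4 as higher in WT + NACET than in WT: Edn2 (log2 fold change 1.88 ± 0.42, adjusted p = 0.0313), Osmr (1.12 ± 0.27, 0.0403), Lcn2 (0.99 ± 0.23, 0.0350) and Cebpd (0.96 ± 0.22, 0.0306). Osmr is the oncostatin M receptor, Lcn2 the iron-binding lipocalin and Cebpd an acute phase transcription factor. Cntfr, a receptor subunit for ciliary neurotrophic factor, was called as lower (-0.97 ± 0.21, adjusted p = 0.0260). It stood as low in Akita, at 9.62 ± 1.64 CPM, as in WT + NACET, at 9.56 ± 1.61. Lcn2 likewise stood as high in Akita, at 8.59 ± 1.26 CPM, as in WT + NACET, at 8.68 ± 1.93. Both were also called in Akita vs WT by edgeR (adjusted p = 0.0237 for Cntfr and 0.0267 for Lcn2). DESeq2 called 6 of the 20, with Gfap as the sixth. Over all 16183 genes edgeR called 139 as higher and 101 as lower, 1.48% in all. DESeq2, with its own filter on the genes, called 705. The median of the list was 0.40 against -0.01 for all genes. Negative but not called by edgeR were Junb (-0.61), Pim1 (-0.54), Cntf (-0.51), Cebpb (-0.25), Lifr (-0.21) and Myc (-0.17). Apart from these and Cntfr the tested genes of the list were positive. Stat3 itself (0.21) and Socs3 (0.59) were among the positive ones and were not called.

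The summed level of the list lay between 637.8 and 833.9 CPM in WT + NACET and between 504.7 and 615.6 in the other 12. Much of that gap was Gfap, at 128.8 to 269.5 CPM in WT + NACET and 25.86 to 116.9 in the other 12. The sum without Gfap was not computed, so the gap is no sign of a shift across the list. Gfap, the intermediate filament of astrocytes and reactive Müller glia, went from 54.1 ± 23.0 CPM in WT to 192.1 ± 48.7 in WT + NACET (adjusted p = 0.0539 by edgeR). Edn2 stood at 9.99 to 41.9 CPM in WT + NACET, clear of the other 12 at 2.92 to 6.97, and Lcn2 overlapped, at 5.22 to 10.8 against 3.02 to 10.2. Gfap counts in the sum of this list and also in that of the 5 astrocyte markers, 166 to 331.1 CPM against 55.54 to 163.2. The other 4 astrocyte markers were not called, with log2 fold changes of 0.10 (Pax2), 0.12 (S100b), 0.28 (Aldh1l1) and 0.58 (Pdgfra). The 5 microglia markers summed to 38.37 to 55.91 CPM against 18.24 to 42.85, and the 5 pericyte markers to 54.93 to 112.1 against 22.71 to 60.23. Of those 10, edgeR called 0, 5 had an unadjusted p under 0.05, and DESeq2 called Rgs5, a pericyte marker (log2 fold change 0.76 ± 0.22, adjusted p = 0.0820 by edgeR). Rgs5 made up most of the pericyte sum, at a mean of 67.8 CPM in WT + NACET and 40.1 in WT. Pdgfrb, also a pericyte marker and among the 5, was lower, at 3.06 CPM in WT + NACET and 4.82 in WT. Its log2 fold change was -0.64 ± 0.29 (adjusted p = 0.224 by edgeR), and those of the other pericyte markers were positive. The part of these cell types in the levels of Steap4 and Bcl3 was not tested. Without WT replicate 1, WT replicate 3 or WT + NACET replicate 3, edgeR called 0 genes of the list as higher.

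**Figure D4:**
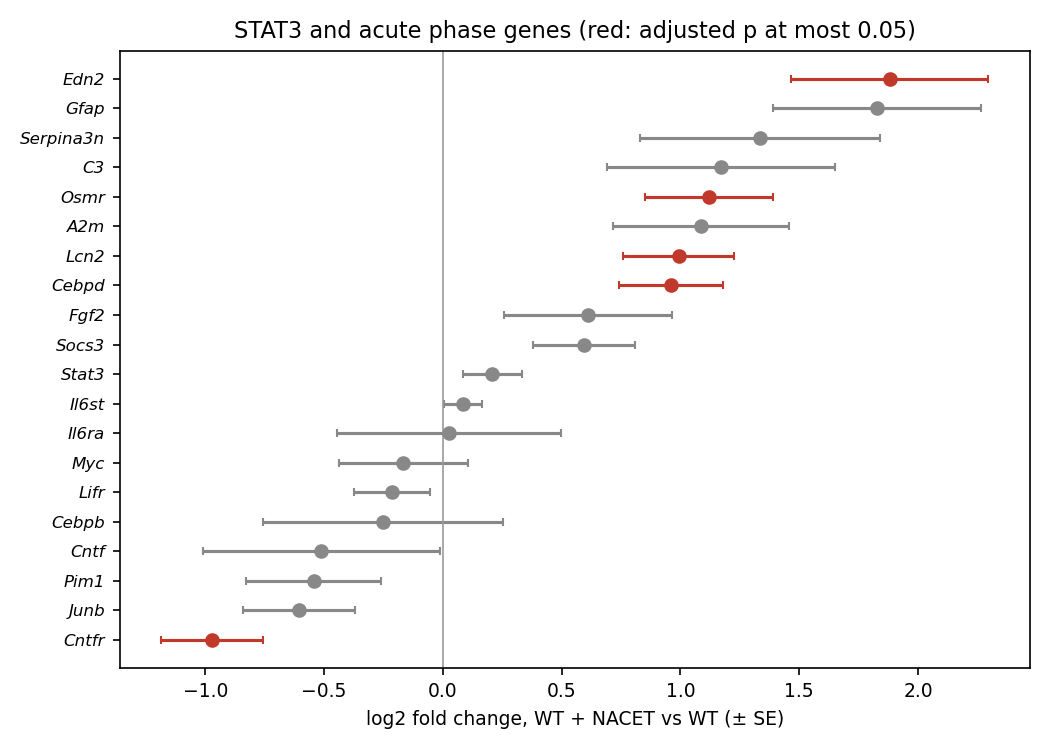
Log2 fold change with SE in WT + NACET vs WT of the 20 tested STAT3 and acute phase genes, in order of size. Red points passed an adjusted p of 0.05: Edn2, Osmr, Lcn2 and Cebpd as higher and Cntfr as lower.

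RefSeq promoters (build GRCm38.p6, 250 bases before the start site to 50 after) matched 4 of the 8 genes: Fn3krp, Bcl3, Steap4 and Rec8. They were searched on both strands for GGGA and CC parted by any 4 bases (NF-κB), TTCNNNGAA (STAT) and TGACNNNGC (the core of the antioxidant response element that NRF2 binds). The NF-κB letters occurred in 3 of the 4 (Fn3krp, Bcl3 and Steap4) and in 20.7% of 32851 promoters, the STAT letters in 1 of the 4 (Steap4) and in 8.3%, and the antioxidant letters in 0 of the 4 and in 12.4%. These 4 promoters held 58.3% to 69% G and C, against a median of 52.7% over all promoters, and the NF-κB letters are rich in both. A match describes these letters and is no sign of binding. The promoters of the 2 cytokine-related genes are shown with matches in capitals: in Steap4 (chr5:7960222-7960521, plus strand) the STAT match starts 116 bases before the start site and the NF-κB matches 250 and 73 before it, and in Bcl3 (chr7:19822706-19823005, minus strand) the NF-κB match starts at base 3 of the transcript.
Steap4: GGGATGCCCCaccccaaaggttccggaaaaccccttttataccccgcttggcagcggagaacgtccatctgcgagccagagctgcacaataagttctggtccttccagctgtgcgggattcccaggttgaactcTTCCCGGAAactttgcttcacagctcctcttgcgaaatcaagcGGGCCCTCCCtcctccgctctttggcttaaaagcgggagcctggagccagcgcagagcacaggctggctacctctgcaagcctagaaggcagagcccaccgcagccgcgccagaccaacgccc
Bcl3: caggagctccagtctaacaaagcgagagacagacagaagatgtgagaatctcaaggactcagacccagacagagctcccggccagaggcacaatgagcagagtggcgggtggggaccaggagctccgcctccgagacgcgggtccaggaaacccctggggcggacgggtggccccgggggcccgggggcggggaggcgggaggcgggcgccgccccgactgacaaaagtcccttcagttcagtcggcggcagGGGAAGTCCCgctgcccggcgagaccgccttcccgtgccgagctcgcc

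The comparisons with no WT + NACET library on either side were open to a test. All 4 groups entered the fit, so the WT + NACET counts still entered the spread behind each SE and p-value. In all 3, Gm10475 was tested only because the WT + NACET libraries carried it past the filter. Its p-values are therefore not independent of how the genes were chosen. In Akita vs WT, which asks what diabetes changes, edgeR called 0 of the 8 genes and 7.64% of all genes tested. Unadjusted, 2 had p under 0.05 (4377 of all 16183 genes), and DESeq2 called 0 (it gave no adjusted p for Dynlt1b here and in Akita + NACET vs Akita). The smallest adjusted p was 0.113, for Tmem181b-ps (log2 fold change -0.48 ± 0.19), followed by 0.167 for Bcl3 (1.22 ± 0.56) and 0.190 for Dynlt1b (-0.79 ± 0.38). Fn3krp, the glycation repair gene, did not differ detectably between diabetic and WT retina, at 6.86 ± 1.01 CPM (n = 4) and 6.47 ± 0.152 (n = 3), with a log2 fold change of 0.09 ± 0.26 (adjusted p = 0.853).

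In Akita + NACET vs Akita, which asks what NACET changes in diabetic retina, edgeR called 1 of the 8 genes and 9.65% of all. The call was Tmem181b-ps, at 6.25 ± 1.54 CPM (n = 5) with NACET and 4.09 ± 0.324 (n = 4) without, which gave a log2 fold change of 0.61 ± 0.17 (adjusted p = 0.0329). Its 2 groups overlapped through Akita + NACET replicate 1, at 4.07 CPM. The direction was opposite to that in WT + NACET vs WT, but that one was fixed by the choice of the gene. A difference between the genotypes was not tested. Reads outside exons, which made up 9.67% to 13.3% of the counted reads in Akita and 14.3% to 19.8% in Akita + NACET, differed between the same groups. With that share as a covariate the log2 fold change was 0.31 (adjusted p = 0.718). The call was also lost without Akita replicate 1, 3 or 4 or Akita + NACET replicate 2, 4 or 5, at adjusted p of 0.0567 to 0.0922. Dynlt1b, the gene next to it, had a log2 fold change of 0.78 ± 0.33 (adjusted p = 0.136). Fn3krp (-0.05 ± 0.22, adjusted p = 0.909), Gm9493 (-0.12 ± 0.16, 0.647) and Rec8 (0.28 ± 0.44, 0.711) were not called.

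In Akita + NACET vs WT edgeR called 0 of the 8 genes and 0.00618% of all, a single gene, and DESeq2 called 0 of the 8. All adjusted p were 0.9996, and 1 of the 8, Gm10475, had an unadjusted p under 0.05 (750 of all 16183 genes). Its log2 fold change was 1.13 ± 0.46 on 2 to 13 counts per library. The gene entered this test only because the WT + NACET libraries carried it past the filter, and the value was 1.99 without WT replicate 1 and 0.76 without WT replicate 3. These tests share the Akita and WT libraries with one another.

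**Figure D5:**
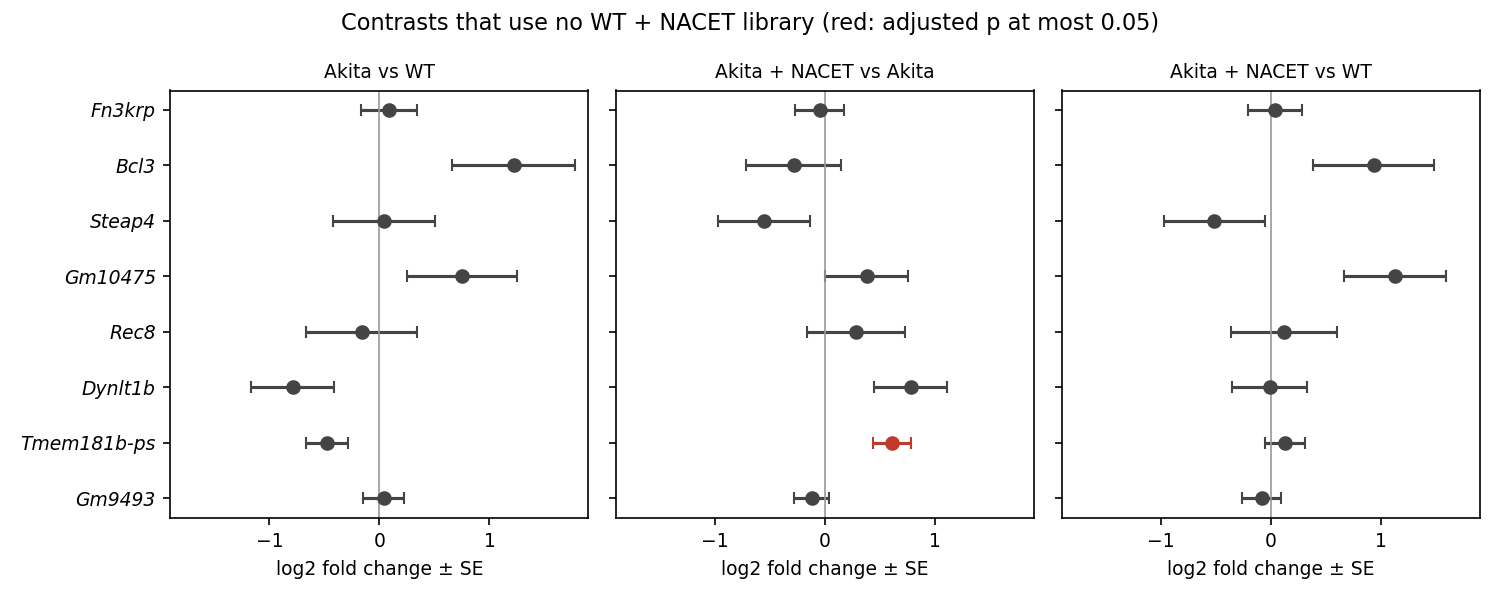
Log2 fold change with SE (horizontal axis) of the 8 genes in the 3 comparisons with no WT + NACET library on either side. The SE come from the fit of all 4 groups. Of the 24 points, 1 is red, Tmem181b-ps in Akita + NACET vs Akita at 0.61, and the others did not pass an adjusted p of 0.05.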

How the data were processed

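Poly(A) RNA of mouse retina was read in 18 libraries. Per the labels and the study's methods, the authors aligned single-end reads to mm9 with TopHat2 2.1.0 and counted them over exons per gene with HTSeq 0.11.2, without strand and at 1 best place only. The deposited values are raw read counts. Here 206 rRNA genes were removed (0.977% of counts), as was an entry without a name (0.00544%). Of 35006 names, 33643 were found in the annotation. edgeR 4.0.16 (R 4.3.3) was fitted with TMM, its default filter (minimum count 10, total 15; 16183 genes passed) and all 4 groups. Adjusted p follow Benjamini and Hochberg over all genes, called at 0.05. CPM are on TMM-scaled library sizes. DESeq2 1.42.0, other filters, covariates, a replicate block and left-out libraries were tried. The replicate numbers do not pair libraries (median r -0.00138 for same-numbered libraries of different groups).

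The 8 genes, the lists and the tests were chosen with earlier results of these data known. Named genes were the 8, their paralogs and host genes, 3 neighbours on each side, the 3 genes most like each in r and the least like it, and at most 4 called genes a list. Genes named beyond these, such as Gfap and Glo1, and the further called genes were chosen after their values were seen. Of the genes that met the rule, 1 is not reported here.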

Additional observations from a re-analysis of the deposited data

Results flagged for a closer look

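Of 23 groups of 4 to 6 libraries with any spread among the 8 genes, 2 held a library far from the rest, and chance alone sets apart about 1 group in 20. Rec8 in WT + NACET replicate 3 stood at 1.29 CPM, and its distance to the next library was 0.824 of the range of the group. Without that library the log2 fold change of Rec8 in WT + NACET vs WT was -6.01, and with it -4.36. Gm9493 in Akita + NACET replicate 5 stood at 18 CPM, a distance of 0.776 of the range, and that library had the highest share of reads outside exons (19.8%).

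For Dynlt1b, every Akita + NACET library lay above the Akita mean, with a ratio of means of 1.76, and every WT + NACET library, at 0 counts, lay below the WT mean. The Akita + NACET vs Akita difference did not pass (log2 fold change 0.78, adjusted p = 0.136 by edgeR). The difference between the genotypes was not tested, because the gene was chosen on its WT + NACET level.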

How the results depend on the processing

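The number of genes called in all moved most. With DESeq2 it was 2080 in Akita vs WT (1237 in the fit reported), 2387 in Akita + NACET vs Akita (1562), 11 in Akita + NACET vs WT (1) and 705 in WT + NACET vs WT (240). With only the 2 groups compared it was 148, 700 and 3 in the first 3, without a filter 1010 in Akita + NACET vs Akita and 2 in Akita + NACET vs WT, and with the percentage of reads outside exons in the model 0 and 0 in the first 2 and 61 in WT + NACET vs WT. Leaving out 1 library at a time gave 0 to 1515, 1 to 1754, 0 to 2 and 72 to 329. Akita vs WT gave 0 without WT replicate 1 or 2 and 234 without Akita replicate 4. Akita + NACET vs Akita gave 1 without Akita replicate 4 and 101 without Akita + NACET replicate 5. The causes were not tested.

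A replicate block gave 507, 219, 0 and 190 calls and ended the call of Tmem181b-ps (log2 fold change 0.55, adjusted p = 0.0955). Under the block Fn3krp turned to -0.07 and Gm9493 to 0.02 in Akita + NACET vs WT, neither of them called. The numbers are not a pairing: same-numbered libraries of different groups correlated at -0.332 to 0.345.

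Tmem181b-ps also lost its call with only the 2 groups (adjusted p = 0.0704) and without a filter (0.059). With reads outside exons in the model Fn3krp turned to -0.22 in Akita vs WT and 0.27 in Akita + NACET vs Akita, and Gm9493 to -0.34 and 0.25. In the comparisons with no WT + NACET library on either side, 295 of 328 values of the 8 genes kept direction and call, 23 turned direction and 10 lost the call. Leaving out 1 library at a time turned the direction of some uncalled values. In Akita vs WT Gm9493 ranged from -0.07 to 0.12 and Steap4 from -0.30 to 0.28. In Akita + NACET vs Akita Fn3krp ranged from -0.14 to 0.01 and Gm9493 from -0.19 to 0.03. In Akita + NACET vs WT Dynlt1b ranged from -0.11 to 0.09, Fn3krp from -0.05 to 0.10, Gm9493 from -0.20 to 0.07 and Rec8 from -0.06 to 0.20.
In the comparisons with WT + NACET libraries 55 of 382 values moved by at least the spread between replicates (1 SD of log2 CPM in WT + NACET). Against WT, Rec8 ranged from -6.01 to -4.00 and Gm10475 from 2.85 to 4.09. The directions there were fixed by the choice of the genes. Of the STAT3 and acute phase genes, 10 of 15 alternatives kept the call of Cebpd, 9 that of Edn2, 7 that of Lcn2 and 6 that of Osmr. Genes with few counts, Dynlt1b, Bcl3 and Gm10475, limit what could be detected in the tested comparisons.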
